A study of Mus musculus with 16 samples.

Results

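A set of 8 genes of the dopaminergic periglomerular neuron were followed across the olfactory bulb (OB) and the subependymal zone (SEZ) of Brg1 conditional knockout (cKO) and control mice. They were chosen by name, as the genes of dopamine synthesis (Th, Ddc, Gch1), of vesicle packaging and reuptake (Slc18a2, Slc6a3) and of the factors that specify these neurons (Nr4a2, Etv1, Meis2). All 8 were on the array, with 9 probe sets between them (Etv1 had 2), of 19938 genes tested. The 4 groups were OB cKO (3 arrays), OB control (5 arrays), SEZ cKO (3 arrays) and SEZ control (5 arrays), and the labels call the arrays of a group biological replicates. The cKO mice were GlastCreERT2/Brg1fl/fl and the controls GlastCreERT2/Brg1fl/+, apart from SEZ control 5, whose label gives Brg1+/+. Every animal thus carried the inducible recombinase GlastCreERT2, which is driven from the Glast locus of astroglia and adult neural stem cells, and most controls carried a floxed Brg1 allele as well. Brg1 is the motor subunit of SWI/SNF complexes, which reposition nucleosomes. The mice were 2.5 months old, on a mixed C57BL/6, CD1 background, the sex is given as not determined, and the labels list no treatment and no time of induction.

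Periglomerular neurons surround the glomeruli of the bulb, where the axons of olfactory sensory neurons end, and a subset of them releases dopamine together with GABA. In the adult they are replaced by neuroblasts born in the SEZ, the stem cell niche beside the lateral ventricle, which migrate to the bulb and mature there. The transcription factor Pax6 is needed for this dopaminergic subtype, and the title of the series names Pax6 as a partner of Brg1. The comparison of cKO with control tissue therefore asks whether the bulk level of the dopaminergic genes differs with genotype. That of OB with SEZ asks in which tissue the RNA of these genes is higher. The samples also held other cells, among them striatal tissue beside the SEZ. A level in SEZ thus need not come from the precursors of these neurons. The recombinase is inducible and driven from the Glast locus, so neurons already made before induction would keep Brg1. Their share in these samples is not known. The design text names the core of the bulb as the dissected tissue, so how much of the outer glomerular layer it held is not known. These are bulk samples, in which fewer cells of a type and less RNA per cell cannot be told apart.

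Values are log2 expression as deposited, and a difference of 1 is a 2-fold change. Levels of different probe sets cannot be set against each other, so each gene is compared only with itself. A group mean under 6.52, the 25th percentile of all gene values, is called low, and no fold is given against it. The dissections were compared by marker genes. Calb2, the calretinin gene of bulb interneurons, was 20.3-fold higher in OB than in SEZ controls. Of its list of 12 bulb interneuron genes, 7 were higher in OB controls and 2 lower, beside 12.6% and 14.9% of all genes. All 9 striatal projection neuron genes measured were lower in OB. They mark striatal tissue beside the SEZ, so they do not show how much of the niche a sample held. Smarca4, the gene of Brg1, averaged 11.02 in OB cKO and 11.01 in OB control samples, and 10.70 in SEZ cKO and 10.71 in SEZ control samples, and did not pass the test in either tissue (adjusted p = 1). Where its probes lie relative to the floxed part of the gene is not known here, so the deletion was not checked by this level. Slc1a3, the gene of Glast, stood at 8.85 in OB cKO 3 and 8.16 in SEZ cKO 3, against 11.16 or more on every other array. The sex-linked genes of OB cKO 1 and SEZ cKO 1 did not match each other, so arrays with the same number need not come from 1 animal. In every other pair of SEZ and OB arrays with the same genotype and number they did match. By these genes each group held arrays of both sexes, and sex was not in the fit. SEZ controls 2 and 4 had a mean level of 8.77 and 9.06 over 9 cortical excitatory neuron genes, against 8.15 to 8.28 on the other 6 SEZ arrays. Each result on the 8 genes was therefore also computed without these arrays.

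Most of the dopamine genes differed between the tissues. Between control tissues, 6 of the 8 genes passed the test as higher in OB and 0 as lower (limma, Benjamini-Hochberg adjusted over all genes, threshold 0.05). Of all genes, 12.6% were called higher and 14.9% lower in the same comparison. Th, Nr4a2 and Slc6a3 had the largest differences, at 8.79-, 5.58- and 3.82-fold. The median difference of the 8 genes was 0.64, against 0.003 over all genes. In cKO tissue the count was 6 higher and 1 lower, beside 10% and 13.1% of all genes, with a median of 0.65 against -0.02 over all genes.

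**Figure D1:**
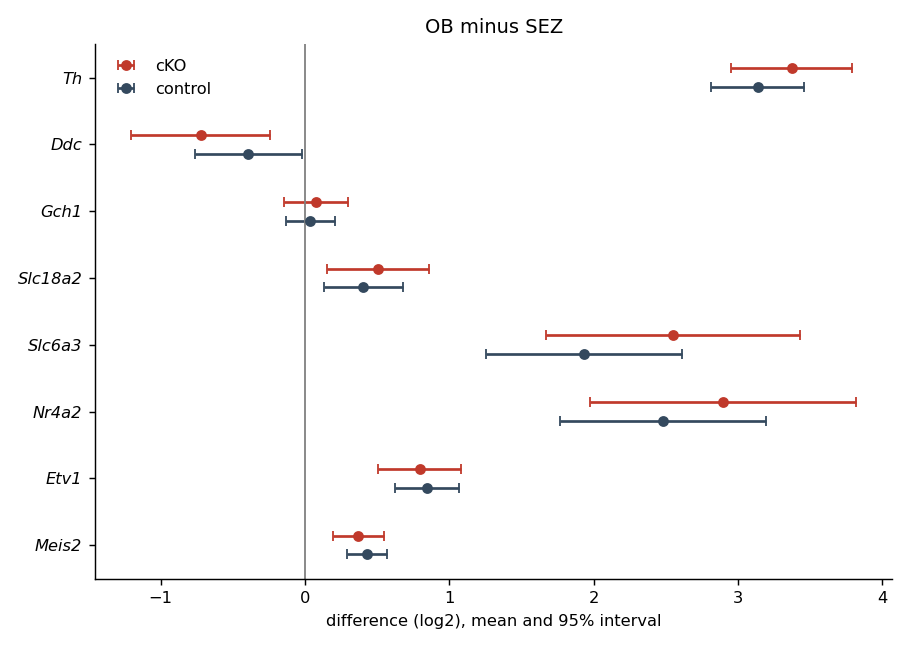
Difference between OB and SEZ (log2, OB minus SEZ) for each of the 8 dopamine genes, in cKO and in control tissue, with 95% confidence intervals from the limma fit. Th, Nr4a2 and Slc6a3 lie furthest to the right in both genotypes, at 3.37, 2.90 and 2.55 in cKO tissue and 3.14, 2.48 and 1.93 in control tissue, and Ddc lies below 0.

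Th encodes tyrosine hydroxylase, which makes L-DOPA from tyrosine and is the rate-limiting enzyme of dopamine synthesis. Its level was 12.11, 12.50, 12.35, 12.12 and 11.79 in OB controls 1 to 5, against 9.07, 8.998, 8.58, 9.31 and 9.24 in SEZ controls 1 to 5. In cKO tissue Th had 11.98, 12.25 and 12.06 in OB, against 9.11, 8.51 and 8.56 in SEZ. Every OB array was higher than every SEZ array, with a gap of more than 2 units between the tissues, and Th was above the low level in SEZ too. The difference was 3.14 in controls (SE 0.15, adjusted p = 5.59e-11), an 8.79-fold higher level with a 95% interval of 7.03 to 11.003. In cKO tissue Th was 10.3-fold higher in OB (adjusted p = 1.07e-09).

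Ddc encodes aromatic L-amino acid decarboxylase, which turns L-DOPA into dopamine and also acts in serotonin synthesis. Unlike Th, it was not higher in OB. It had 6.71, 7.04, 6.87, 7.01 and 6.90 in OB controls, against 6.98, 7.42, 6.83, 7.48 and 7.78 in SEZ controls, and the groups overlapped. The difference in controls was -0.39 (SE 0.18) and did not pass the test (adjusted p = 0.119). In cKO tissue the OB arrays had 6.66, 6.62 and 6.80 and the SEZ arrays 7.96, 6.95 and 7.34, so that all 3 OB arrays lay below all 3 SEZ arrays. There Ddc was 1.65-fold lower in OB (adjusted p = 0.029). That call was lost without any 1 of the OB cKO arrays (adjusted p from 0.051 to 0.0807) and without SEZ cKO 1 (0.18), whose Ddc was the highest of all 16 arrays.

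Gch1 encodes GTP cyclohydrolase, the first enzyme in making tetrahydrobiopterin, the cofactor that tyrosine hydroxylase needs. Its probe set was low in all 4 groups, with means of 5.40 in OB cKO, 5.35 in OB control, 5.33 in SEZ cKO and 5.31 in SEZ control samples, and all values between 5.16 and 5.55. No group differed from another by the test. A probe set at this level does not show whether the RNA was absent or was not read by these probes.

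Slc6a3 encodes the dopamine transporter, which returns released dopamine to the cell and marks mature dopaminergic terminals. It had 10.22, 11.35, 8.90, 9.96 and 9.95 in OB controls, against 8.19, 8.55, 7.51, 7.97 and 8.49 in SEZ controls. The cKO arrays had 10.75, 10.28 and 10.11 in OB, against 7.51, 7.96 and 8.03 in SEZ. No OB array reached down to the SEZ arrays, but OB controls 2 and 3 differed from each other by 2.45 units, the widest range of any of the 8 genes within a group. The difference between the tissues was 1.93 in controls (SE 0.32, adjusted p = 0.000159), a 3.82-fold higher level in OB, and 2.55 in cKO tissue (SE 0.42, adjusted p = 0.000179).

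Slc18a2 encodes VMAT2, the transporter that loads dopamine and other monoamines into vesicles. The difference between the tissues was small. Its level was 7.32, 7.02, 7.60, 7.10 and 7.03 in OB controls, against 7.09, 6.62, 6.76, 6.76 and 6.82 in SEZ controls, where SEZ control 1 lay among the OB arrays. In cKO tissue it had 7.49, 6.91 and 7.51 in OB, against 6.79, 6.89 and 6.70 in SEZ, with OB cKO 2 only just above SEZ cKO 2. Slc18a2 passed as 1.32-fold higher in OB controls (adjusted p = 0.0269) and 1.42-fold higher in OB cKO tissue (adjusted p = 0.0365). The call in controls was lost without OB control 1 or 3 or SEZ control 2, 3 or 4 (adjusted p from 0.051 to 0.0804), and that in cKO tissue without OB cKO 1 or 3 or any SEZ cKO array (adjusted p from 0.0538 to 0.161).

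Nr4a2, also called Nurr1, is a nuclear receptor that activates Th and Slc6a3 in midbrain dopaminergic neurons and is also an immediate early gene. It had 10.28, 11.06, 10.45, 11.06 and 11.05 in OB controls, against 7.69, 8.58, 7.44, 9.75 and 8.05 in SEZ controls. In cKO tissue it had 10.58, 11.06 and 9.94 in OB, against 7.72, 7.66 and 7.52 in SEZ. The tissues did not overlap, although SEZ control 4 came within 1 unit of the lowest OB control. Nr4a2 was 5.58-fold higher in OB controls (difference 2.48, SE 0.34, adjusted p = 1.93e-05) and 7.44-fold higher in OB cKO tissue (adjusted p = 8.13e-05).

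Etv1, also called Er81, is an ETS factor that binds the Th promoter and marks bulb interneurons. Its brighter probe set ranged from 11.27 to 11.59 in OB controls, against 10.33 to 10.93 in SEZ controls, and was 1.80-fold higher in OB (adjusted p = 6.31e-06). The cKO arrays ran from 11.11 to 11.47 in OB, against 10.35 to 10.67 in SEZ (1.73-fold, adjusted p = 0.000273). The second probe set of Etv1 gave the same direction, with differences of 0.69 in controls (adjusted p = 0.000444) and 0.50 in cKO tissue (adjusted p = 0.0349).

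Meis2 is a homeodomain factor that binds DNA together with Pax6 in the making of dopaminergic bulb interneurons. It had one of the smallest spreads, from 13.55 to 13.79 in OB controls, against 13.18 to 13.29 in SEZ controls. In cKO tissue it ranged from 13.55 to 13.72 in OB, against 13.14 to 13.41 in SEZ. These narrow groups did not overlap, and Meis2 was 1.35-fold higher in OB controls (adjusted p = 5.23e-05) and 1.29-fold higher in OB cKO tissue (adjusted p = 0.00306). Of the 8 genes, 5 had OB controls wholly above SEZ controls, beside 9.93% of all genes. In cKO tissue 6 were wholly above, beside 14.3% of all genes, and Ddc was wholly below, beside 19%.

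**Figure D2:**
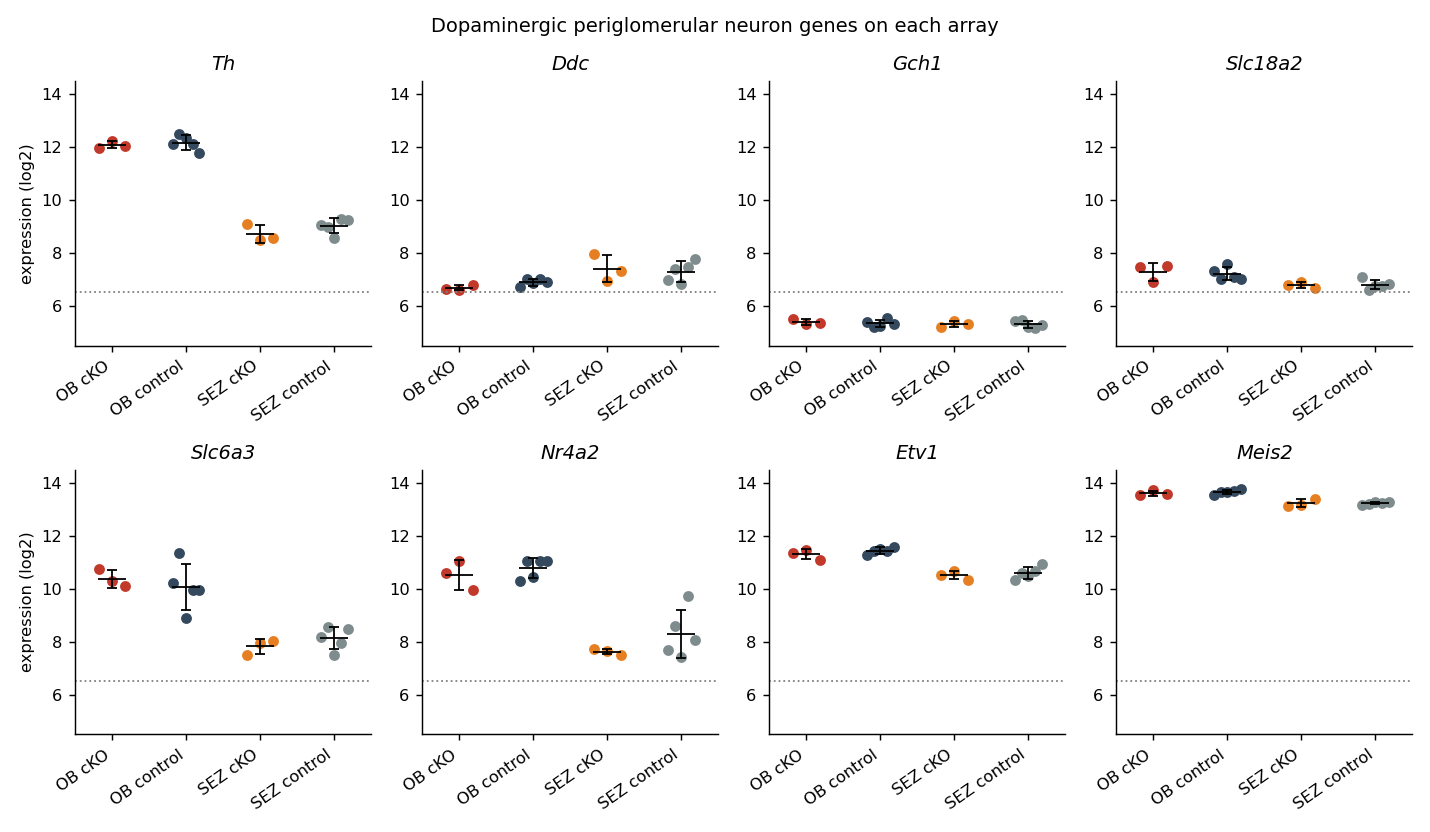
Level (log2) of each of the 8 dopamine genes on every array, in OB cKO, OB control, SEZ cKO and SEZ control samples, with the group mean and SD as a black bar and the low level of 6.52 as a dotted line. Th, Slc6a3 and Nr4a2 separate the tissues by 1.93 to 3.37 units on average, Gch1 lies under the line on every array, and within each tissue the cKO and control points overlap for every gene.

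The promoters of 3 genes that were higher in OB are shown because Th and Slc18a2, the enzyme and the vesicle transporter of the same pathway, share a complete cyclic AMP response element (CRE) near the start of transcription. Each is the RefSeq window of 250 bases before to 50 bases after the start, in assembly GRCm38.p6 and read 5′ to 3′ on the gene's strand. Capitals mark matches to TGACGTCA, the CRE, in Th and Slc18a2, and in Nr4a2 to its shorter core TGACG or to the TATA core TATAAA, on either strand.
Th promoter, chr7:142899946-142900245, minus strand: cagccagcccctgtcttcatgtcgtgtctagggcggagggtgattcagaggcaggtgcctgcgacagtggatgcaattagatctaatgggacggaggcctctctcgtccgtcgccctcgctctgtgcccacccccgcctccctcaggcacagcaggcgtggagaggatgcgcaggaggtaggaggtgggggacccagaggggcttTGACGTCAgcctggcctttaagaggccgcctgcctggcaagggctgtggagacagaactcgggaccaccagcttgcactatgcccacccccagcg
Slc18a2 promoter, chr19:59260628-59260927, plus strand: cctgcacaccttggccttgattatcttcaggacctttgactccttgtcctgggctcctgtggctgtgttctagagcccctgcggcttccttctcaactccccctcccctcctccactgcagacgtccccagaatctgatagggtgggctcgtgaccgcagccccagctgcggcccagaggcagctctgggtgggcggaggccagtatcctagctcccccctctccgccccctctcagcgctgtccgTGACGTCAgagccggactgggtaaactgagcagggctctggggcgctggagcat
Nr4a2 promoter, chr2:57123954-57124253, minus strand: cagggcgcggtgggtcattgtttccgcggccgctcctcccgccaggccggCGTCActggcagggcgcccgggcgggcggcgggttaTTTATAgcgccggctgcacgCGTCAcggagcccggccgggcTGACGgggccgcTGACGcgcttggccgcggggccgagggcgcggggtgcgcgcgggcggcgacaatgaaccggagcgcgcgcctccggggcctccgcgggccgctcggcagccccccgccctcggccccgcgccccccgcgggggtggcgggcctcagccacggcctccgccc

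In Th the element lay at bases -45 to -38 from the start, and in Slc18a2 it spanned the start, from base -4 to base 4. The full element was found in 1.79% of 32851 windows of the same length, searched on both strands, and in the windows of 2 of the 8 genes. The core TGACG, which lies within the full element, was found in 20.8% of windows and in those of Th, Gch1, Slc18a2 and Nr4a2, the last with 4 matches. The NR4A response element AAAGGTCA was in 1.51% of windows and in that of Ddc, where it overlapped a TATAAA match. The MEIS core TGACAG was in 19.2% of windows and in those of Ddc, and the ETS core CCGGAA in 14.9% and in none of the 8 genes. TATAAA was in 13.6% of windows and in those of Ddc, Gch1, Nr4a2, Etv1 and Meis2. All 8 genes had a window, Ddc and Etv1 had 2 each, and no motif of this search was in that of Slc6a3. The array reads no binding, so these matches are descriptions of sequence.

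Brg1 cKO tissue was compared with control tissue next, first in OB. No dopamine gene passed the test (0 of 8, adjusted p = 1 for each, unadjusted p from 0.265 to 0.658). Over all genes 0.0451% were called, all 9 of them lower in cKO, or 5 genes with the replicate number as a block, and 700 had an unadjusted p under 0.05. The median difference of the 8 genes was -0.07, against -0.01 over all genes, and in none did the 3 cKO arrays lie apart from the 5 controls, beside 2.53% of all genes.

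Th averaged 12.10 ± 0.14 in OB cKO (SD, n = 3) and 12.17 ± 0.27 in OB control samples (n = 5). The difference of -0.08 had a 95% interval of -0.45 to 0.29, so the data allow a Th level in cKO from 0.731 to 1.23 times the control. Etv1 at -0.14 (interval -0.39 to 0.12) and Meis2 at -0.06 (-0.21 to 0.10) had narrower intervals. The second probe set of Etv1 gave a more negative estimate with a wider interval, -0.23 (-0.54 to 0.08). Ddc averaged 6.69 ± 0.10 in OB cKO and 6.91 ± 0.13 in OB control samples, a difference of -0.21 (-0.64 to 0.22). For Slc18a2 the difference was 0.09 (-0.23 to 0.40), and for Gch1, which was low, 0.06 (-0.14 to 0.26). The intervals of the other two were wide. Slc6a3 averaged 10.38 ± 0.33 in OB cKO and 10.08 ± 0.87 in OB control samples (0.31, interval -0.48 to 1.09), and Nr4a2 gave -0.25 (-1.08 to 0.57). For these, changes of up to about 2-fold in one direction lie within the interval.

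In the same OB arrays the genes of migrating neuroblasts, the cells that supply new bulb interneurons, did show calls. Of the 12 in that list, 5 were called lower in OB cKO, beside 0.0451% of all genes, with a list median of -0.64. All 12 estimates were below 0. The list was chosen with earlier results of these data known, so its count of calls is a description and not independent support. Prokr2, the receptor that guides neuroblasts into the bulb, had 9.35, 9.69 and 9.02 in OB cKO, against 11.36, 10.98, 11.16, 11.34 and 11.55 in OB control samples, and fell by 1.92 on the log2 scale (adjusted p = 0.000629). Cd24a, a neuroblast surface protein, was 2.83-fold lower (adjusted p = 0.00525). The other 3 were St8sia2, a polysialic acid synthase, Nrep and the tubulin gene Tubb2b, with adjusted p from 0.00525 to 0.0394. The count depended on the arrays, with 1 of 12 without OB cKO 3, 1 with the OB arrays fitted alone, 3 with the replicate number as a block, and 3 without OB control 2, 4 or 5, SEZ cKO 2, or SEZ control 2 or 4. Set beside these, 0 of 15 specification factors passed in OB cKO. Their median was -0.04, 11 of 15 estimates were below 0, and they ran from -0.20 (Dlx2 and Nr2f1) to 0.15 (Sall3), with Pax6 at -0.02. Of the 12 bulb interneuron genes 0 passed as well, with a median of 0.03, 4 estimates below 0, and a range from -0.48 to 0.20. The most negative was Calb1, at -0.48 (interval -0.87 to -0.08, unadjusted p = 0.0204, adjusted p = 1). None of these differences between gene lists was itself tested.

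**Figure D3:**
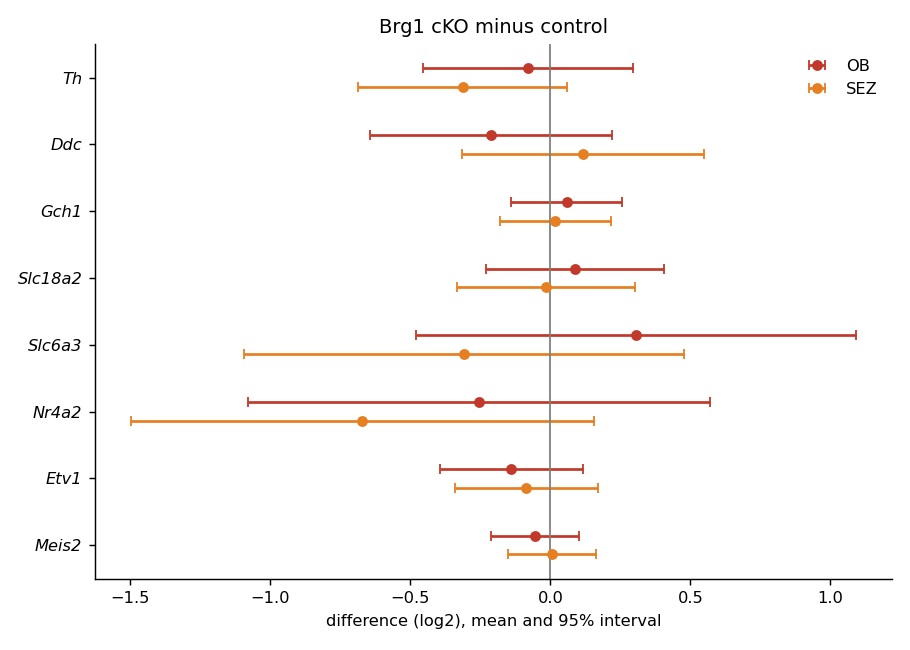
Difference between cKO and control samples (log2, cKO minus control) for each of the 8 dopamine genes in OB and in SEZ, with 95% confidence intervals. Every interval crosses 0. Meis2 and Gch1 have the narrowest intervals, and Slc6a3 and Nr4a2 the widest.

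In SEZ none of the 8 genes passed either (limma, adjusted p = 1 for each). Over all genes 0% were called there, or 2 genes with the replicate number as a block, and 492 had an unadjusted p under 0.05. Th averaged 8.72 ± 0.33 in SEZ cKO and 9.04 ± 0.29 in SEZ control samples, a difference of -0.31 (interval -0.69 to 0.06, unadjusted p = 0.0943), with SEZ cKO 2 and 3 below every control and SEZ cKO 1 among them. Nr4a2 had the most negative estimate, -0.67 (-1.50 to 0.15), and Slc6a3 gave -0.31 (-1.09 to 0.48). Ddc differed by 0.12 (-0.31 to 0.55), Etv1 by -0.09 (-0.34 to 0.17), and Slc18a2, Gch1 and Meis2 by 0.02 or less in size. The median of the 8 was -0.05, against 0.004 over all genes, and no gene had cKO arrays apart from controls, beside 2% of all genes.

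The difference between cKO and control was then compared between the tissues, as the SEZ effect minus the OB effect. No dopamine gene passed that test (adjusted p = 1 for each), and over all genes 0.00502% did, which is 1 gene. That count was 0 without OB cKO 2 or 3 or SEZ cKO 1 or 3, and 2 without SEZ control 3. The estimates ran from -0.62 for Slc6a3 (interval -1.73 to 0.50) to 0.33 for Ddc (-0.28 to 0.94), with -0.23 for Th (-0.76 to 0.29). The difference between OB and SEZ described above was thus not shown to depend on genotype for any of the 8 genes, within these intervals.

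Within groups, the spread of Nr4a2 moved with that of other genes. In SEZ, Nr4a2 was highest in controls 4 and 2, at 9.75 and 8.58. The same arrays had the highest levels of Slc17a7, the vesicular glutamate transporter of cortical excitatory neurons, at 11.06 and 10.58, against 7.84 to 8.98 on the other 6 SEZ arrays. Tbr1, a cortical transcription factor, showed the same arrays at 8.63 and 8.17, against 6.47 to 6.91. They were the highest for 5 of the 9 cortical genes measured. The part of cortical tissue in the Nr4a2 values was not tested. Leaving these arrays out cannot test it, because they were also the highest SEZ arrays for Nr4a2 itself. Dropping them had to move both Nr4a2 differences in the directions given next, whatever the cause. Without SEZ controls 2 and 4, the SEZ difference of Nr4a2 between cKO and control was -0.10 in place of -0.67 (adjusted p = 0.999), and its difference between OB and SEZ controls was 3.05 in place of 2.48 (adjusted p = 1.14e-07). Slc18a2 then differed by 0.33 between the control tissues and no longer passed (adjusted p = 0.157).

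In OB, Nr4a2 was lowest in OB cKO 3 (9.94) and OB control 1 (10.28). Nr4a1, a related receptor and immediate early gene of neuronal activity, was also lowest there, at 9.89 and 10.13, against 10.86 to 12.06 on the other 6 OB arrays. Fos, another such gene, had its lowest OB values in the same arrays, 7.73 and 7.34, against 8.34 to 8.86. Both arrays were the lowest for 6 of the 10 immediate early genes, with list means of 9.03 and 8.84, against 9.43 to 9.58 on the other 6 OB arrays. The part of neuronal activity in the Nr4a2 values was not tested. Leaving out OB cKO 3 moved the OB difference of Nr4a2 between cKO and control to 0.04. Leaving out OB control 1, the low array of the other genotype, makes that difference more negative instead. With each single array left out in turn, it ran from -0.52 to 0.04.

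Slc6a3 varied in OB without following Th. Over the OB controls its order was 2, 1, 4, 5, 3, while that of Th was 2, 3, 4, 1, 5. Omp, the marker protein gene of olfactory sensory axons that end in the glomerular layer, had 10.38, 10.73, 9.82, 8.86 and 7.36 in OB controls and 9.95, 8.54 and 9.42 in OB cKO samples, against 7.14 to 7.75 in SEZ. Omp thus ranged over more than 3 units between OB controls 2 and 5, and control 5 was at the level of SEZ. Slc6a3 was highest where Omp was highest, in control 2, but lowest in control 3, whose Omp was the middle value of the controls. With control 3 set aside, the controls had the order 2, 1, 4, 5 for both genes. Control 3 was set aside after its values were seen, so this order is a description and not support for a link. Slc6a3 was also nearly equal in controls 4 and 5, at 9.96 and 9.95. The OB cKO arrays had the order 1, 3, 2 for Omp and 1, 2, 3 for Slc6a3. The mean over the 8 genes of sensory axons and ensheathing glia ran from 9.10 to 9.55 in OB cKO and from 8.72 to 9.74 in OB control samples. The part of the glomerular layer in the Slc6a3 values was not tested. Th in control 5, the array with the least Omp, was the lowest of the OB arrays at 11.79 but still more than 2 units above every SEZ array.

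**Figure D4:**
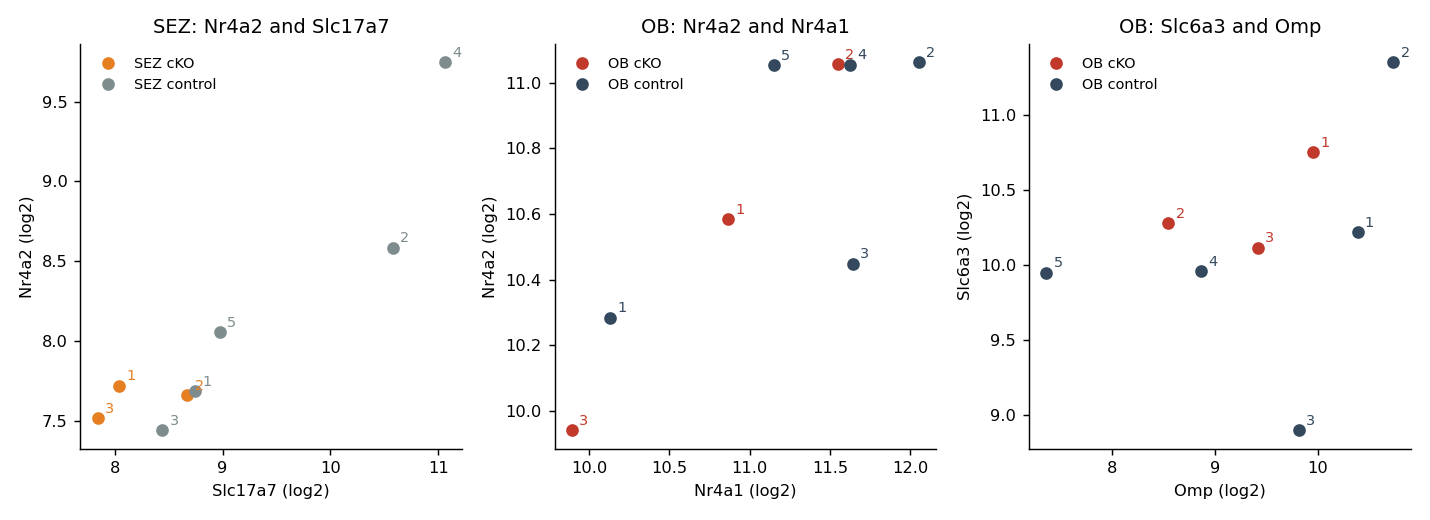
Levels (log2) of 2 genes on each array of 1 tissue, with points numbered by replicate and coloured by genotype: Nr4a2 against Slc17a7 in SEZ, Nr4a2 against Nr4a1 in OB, and Slc6a3 against Omp in OB. SEZ controls 2 and 4 stand at the upper right of the first panel, and OB cKO 3 and OB control 1 at the lower left of the second. In the third, OB control 2 is highest for both genes, and OB control 3 is lowest for Slc6a3 but not for Omp.

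With group means removed, the 8 genes did not move as one block. Of their 28 pairs, 16 had a correlation above 0 over the 16 arrays, and the values ran from -0.54 to 0.68, the highest for Th and Ddc. These correlations share arrays and normalisation, and are given as a description.

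Genes around the dopamine pathway showed other tissue patterns. Of 9 measured genes that make the tetrahydrobiopterin cofactor or break down monoamines, 4 were lower and 0 higher in OB controls than in SEZ controls, beside 14.9% and 12.6% of all genes. Maob, monoamine oxidase B, was 2.01-fold lower in OB (adjusted p = 6.15e-06), and Qdpr, which recycles the cofactor, 1.49-fold lower (adjusted p = 0.0153). Pts and Spr, which make the cofactor after Gch1, were 1.30- and 1.21-fold lower (adjusted p = 0.0278 and 0.013). The genes that were lower thus belonged to both cofactor supply and breakdown. The count of lower genes ran from 2 to 5 over the alternatives.

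Dopamine receptors ran opposite to Th. Of 5 receptors, 4 were lower in OB controls and 0 higher, beside 14.9% and 12.6% of all genes. Drd2, whose receptor also restrains dopamine release, had 8.53, 8.18, 8.52, 8.09 and 7.99 in OB controls, against 13.43, 12.98, 13.50, 13.14 and 13.05 in SEZ controls, and was 31.2-fold lower in OB (adjusted p = 2.17e-13). Drd1 was 22.2-fold lower, Drd3 3.24-fold and Drd5 1.67-fold, while Drd4 differed by -0.03 and did not pass (adjusted p = 0.881). Drd1 and Drd2 are also genes of striatal projection neurons, and all 9 measured genes of that list, these receptors among them, were lower in OB, with a median of -3.91. How much of the receptor difference came from striatal tissue beside the SEZ was not tested.

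Other transcription factors of dopaminergic and periglomerular specification mostly followed Th. Of 15 measured, 12 were higher in OB controls and 2 lower, beside 12.6% and 14.9% of all genes, so the share of lower ones was near that of all genes. Sp8, needed for several bulb interneuron types, was 6.37-fold higher (adjusted p = 4.89e-12), Dlx1 4.96-fold, Tshz1 4.35-fold, and Zic1 4.27-fold. Pax6 had 10.04, 9.83, 10.02, 9.88 and 9.92 in OB controls, against 8.30, 8.07, 8.27, 8.08 and 8.02 in SEZ controls, 3.46-fold higher in OB (adjusted p = 5.17e-10). The 2 lower genes were Dlx6 (-0.20, adjusted p = 0.0487) and Gsx2, a factor of the progenitors (-0.31, adjusted p = 0.0152).

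**Figure D5:**
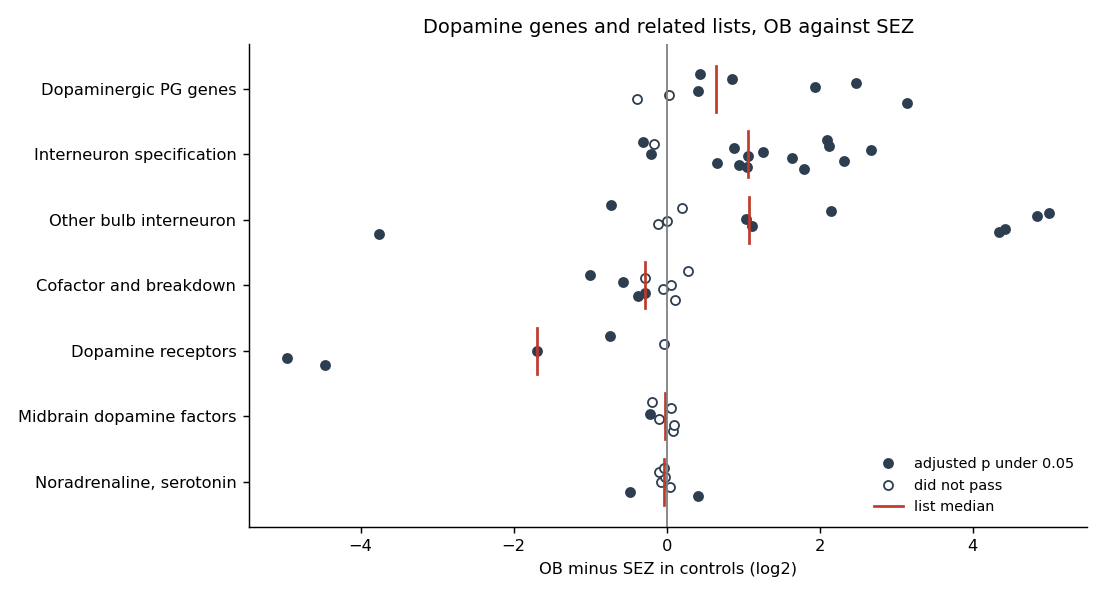
Difference between OB and SEZ controls (log2, OB minus SEZ) for each measured gene of 7 lists, with the list median as a red line. Filled points passed the test (adjusted p under 0.05) and open points did not. The specification factors lie mostly above 0 and the dopamine receptors below it, and midbrain factors lie near 0.

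Among bulb interneuron genes, 7 of 12 were higher in OB controls and 2 lower, again beside 12.6% and 14.9% of all genes. The lower ones were Calb1 (-3.76), the calbindin gene of another class of periglomerular neuron that striatal neurons also express, and Penk (-0.73), an opioid peptide gene that is on the striatal list too. Gad2 and Slc32a1, which serve GABA synthesis and packaging, differed by -0.11 and 0.00 and did not pass (adjusted p = 0.398 and 0.999), whereas Gad1 was 2.16-fold higher (adjusted p = 3.01e-10). Frmd7, Cpa6 and Scgn (secretagogin), which mark bulb interneurons, were higher by 5.00, 4.83 and 4.42 on the log2 scale and low in SEZ, so no fold is given. Genes of other monoamine neurons had few calls, near the shares of 12.6% higher and 14.9% lower among all genes. Of 6 measured midbrain dopaminergic factors, 0 were higher and En2 was lower, by 0.22 on the log2 scale (-0.22, adjusted p = 0.0345). Pitx3, which midbrain dopaminergic neurons require, differed by 0.08 (adjusted p = 0.649). Of 7 noradrenergic and serotonergic genes, Dbh was higher (0.40, adjusted p = 0.000451) but low in every group, and Pnmt was lower (-0.48, adjusted p = 0.000498). In each group 3 of these 7 genes were low, and En2 averaged 6.54 in OB controls, just above the low level. Genes at such levels cannot show whether they follow Th. Over the alternatives, the counts of higher specification factors ran from 10 to 12, of lower receptors from 3 to 4, and of lower midbrain factors from 0 to 1.

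In cKO against control tissue 0 genes of the cofactor, receptor, specification, interneuron, midbrain and other monoamine lists passed, in OB or in SEZ (limma, adjusted p = 1 for each gene). The most negative estimate among the specification factors was that of Dlx1 in SEZ, at -0.56 (unadjusted p = 0.000834). It had 9.41, 9.33 and 9.11 in SEZ cKO, against 10.04, 9.67, 10.32, 9.53 and 9.65 in SEZ control samples, so that the groups did not overlap, beside 1.05% of all genes that were wholly lower. Klf7 and Sall3 of the same list were also wholly lower in SEZ cKO. Klf7 reached 10.145 in SEZ cKO, just under the lowest SEZ control at 10.161. The same comparison in OB gave Dlx1 a difference of -0.08.

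The genes whose levels were most like that of Th over all 16 arrays were Calb2 (Pearson r = 0.993), Tm6sf1, Parva, Islr and Stxbp6 (r = 0.992 each). All 5 separate the tissues as Th does, which is what the correlation mainly reads. Calb2, for example, averaged 12.70 in OB cKO and 12.68 in OB control samples, and 8.12 in SEZ cKO and 8.33 in SEZ control samples. With the mean of each group removed, the highest correlations with Th were those of Cbln4 (r = 0.862), Chga (0.853), Enpep (0.842), Cpt2 (0.838) and Tbc1d4 (0.812), again over 16 arrays that share normalisation.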

How the data were processed

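RNA from 16 tissue samples was hybridised to 1-colour Affymetrix arrays. The deposited values are log2 expression per probe set, made with RMA in Affymetrix Expression Console 1.2, per the submitters' processing notes. RMA quantile-normalises the arrays, which hides any shift common to all genes. No header or label gives the genome build of the probe sets. Array medians ran from 7.45 to 7.65, no 2 arrays were copies (highest correlation 0.995), and precision is set by the number of arrays.

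The annotation gave 1 symbol to 21789 of 35556 probe sets, several to 1621 and none to 12146, and the first were used. Of these, 21698 matched the RefSeq table by Entrez identifier. The brightest probe set stood for the 999 genes with several, which left 19938 genes. All 16 arrays were fitted with limma 3.58.1 in R 4.3.3 (lmFit, eBayes), 4 groups, no covariate, two-sided, Benjamini-Hochberg over all genes, threshold 0.05. The code was tested on simulated data.

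Whether arrays with the same number deviated together was checked as a sign of pairing (correlation over 0.1 in every pair). This held for OB cKO and control (0.43, 0.33 and 0.32), but not for SEZ cKO and control (-0.41 for number 1). For SEZ and OB 7 of 8 pairs were over 0.1, with 0.17 to 0.57 in controls and -0.06 for cKO 1. The labels name no pairs, so the main fit had no block. Fits with the number as a block are among the alternatives.

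The 8 genes and all lists were chosen with earlier results of these data known. The text names all 8, up to 4 genes per list by size of change among those that passed, then by p, the 5 genes most like Th by each measure, and genes set beside a dopamine gene because a cell type was at issue. Sall3, Klf7, Dlx2, Nr2f1, Dlx6, Gsx2, Penk, Gad1, Gad2, Slc32a1, Pitx3 and Tubb2b lie outside this rule and were chosen after their values were seen. Lists of neuroblast, nerve layer, cortical, striatal, mitral, glial and endothelial genes served as markers of other cells. The mitral, astrocyte, microglia and endothelial lists had 0 calls in cKO against control in either tissue. Some genes of these lists are not reported here. Promoter windows are from RefSeq.

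Alternatives were cyclic loess, median centring, array weights, a robust intensity trend, fewer genes, other probe set rules, replicate blocks, an adjusted p under 0.1, fits on the compared arrays alone, and leaving out each array, SEZ controls 2 and 4, or cKO number 1 or 3 in both tissues.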

Additional observations from a re-analysis of the deposited data

Results flagged for a closer look

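Sall3, a zinc finger factor needed for the dopaminergic bulb interneuron, was set apart because the cKO arrays lay above every control in OB. In SEZ they lay below every control. In OB the lowest cKO array (9.176) was just above the highest control (9.165). Groups lay apart, in either direction, in 2.53% of all genes in OB and 2% in SEZ. The share of all genes that lay apart in opposite directions was not counted. It had 9.21, 9.19 and 9.18 in OB cKO, against 9.17, 8.83, 9.09, 9.004 and 9.10 in OB control samples, a difference of 0.15. In SEZ it had 7.83, 7.80 and 7.83 in cKO, against 8.04, 7.97, 7.94, 7.97 and 8.04 in control samples, a difference of -0.17. The test of the difference between the tissues gave -0.33 (interval -0.54 to -0.11, unadjusted p = 0.00471, limma) and did not pass (adjusted p = 1). Sall3 was found among the genes of the lists after its values were seen. Among 32 pairs of a probe set and a control group of 5 arrays, 0 held an array that stood apart by Dixon's test (critical value 0.71).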

How the results depend on the processing

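No dopamine gene passed in cKO against control in OB or SEZ under 30 alternatives, or in the difference of effects under 29 (each 1 fewer for Ddc, Gch1 and Slc18a2, which the fit on genes above the median level left out). Th, Nr4a2, Slc6a3, Etv1 and Meis2 kept their OB calls in all 30; the number called was 5 to 7 in controls and in cKO tissue. Of 1177 single values, 1112 kept direction and side of the threshold, 42 turned sign (none past the threshold, none over 0.16 in size after turning, and up to 0.42 in size with all arrays, for Nr4a2 in the difference of effects), 21 lost a call and 2 gained one. The cause was not tested.

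With the replicate block no call of the 8 genes changed, while all genes called went to 5 in OB cKO against control and 2 in SEZ, and Nr4a2 in OB cKO against control was 0.037. All genes called in OB cKO against control ranged from 2 (without OB cKO 3) to 10 against 9, with 5 without OB control 4 or 5, SEZ cKO 2 or SEZ control 4, and in the difference of effects from 0 to 2 against 1. Further values that turned sign in that comparison were Gch1 at -9e-04 and Slc18a2 at -0.0042 without cKO 1 in both tissues, and Slc18a2 at -0.016 and Nr4a2 at 0.039 without cKO 3. In SEZ they were Gch1 at -0.014 (cyclic loess), Ddc at -0.11, Slc18a2 at 0.026 and Meis2 at -0.013 (array weights), Meis2 at -0.0057 (without SEZ controls 2 and 4), Ddc at -0.15 (without cKO 1), and Slc18a2 at 0.0325 and Meis2 at -0.077 (without cKO 3). In the difference of effects they were Etv1 at -0.085 (array weights), Nr4a2 at 0.16 (without SEZ controls 2 and 4), Gch1 at 0.073 (without cKO 1), and Slc18a2 at 0.049 and Meis2 at -0.0445 (without cKO 3). OB against SEZ in cKO turned for Gch1 without cKO 1, to -0.037.

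Leaving out single arrays gave ranges across 0 of -0.18 to 0.002 for Th, -9e-04 to 0.11 for Gch1, -0.016 to 0.28 for Slc18a2 and -0.52 to 0.039 for Nr4a2 in OB. In SEZ they were -0.15 to 0.35 for Ddc, -0.0455 to 0.0725 for Gch1, -0.0655 to 0.054 for Slc18a2 and -0.077 to 0.054 for Meis2. For the difference of effects they were -0.10 to 0.019 for Gch1, -0.30 to 0.00087 for Slc18a2, -0.046 to 0.14 for Etv1 and -0.022 to 0.11 for Meis2, and for OB against SEZ in controls -0.014 to 0.074 for Gch1.

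Ddc gained its call in controls with array weights (-0.59, adjusted p = 0.00544) and without SEZ control 3 (-0.51, 0.0361), and lost that in cKO with cyclic loess (-0.72, as before, 0.0506) and without cKO 1 (-0.44, 0.311) or 3 (-0.82, 0.0765). Slc18a2 lost its call in cKO tissue with only the compared arrays (0.51, as before, 0.0587) and without cKO 1 (0.41, 0.26) or 3 (0.36, 0.294).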
